A study of Mus musculus with 4 samples.

Results

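Bone morphogenetic proteins (BMPs) are secreted signals of the transforming growth factor beta family, and 6 ligand genes (Bmp2, Bmp4, Bmp5, Bmp6, Bmp7 and Bmp8b) and 3 genes for secreted proteins that bind such ligands (Grem1, Nog and Bmper) were examined. These 9 genes were taken by symbol from the 22609 gene rows of a count table of mouse testis RNA, and all 9 are present in it. The table holds 4 polyadenylated RNA libraries of whole testes from postnatal day 3, on a predominantly C57BL/6J background. In 2 libraries, called wild type here, the thyroid hormone receptor alpha 1 is labelled wild type. In the other 2, called mutant, the receptor is labelled dominant negative. AmhCre mice were crossed with heterozygous carriers of the TRαAMI allele to give these animals, and the series' title restricts the mutation to Sertoli cells, in which the Amh promoter drives Cre. Whether the wild-type animals carried AmhCre or the unrecombined allele is not given in the sources used here, nor whether a library is 1 animal or a pool, so each p-value reflects the spread between libraries, which may be technical. Paired values are given in the order replicate 1, replicate 2.

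BMP ligands act as dimers on pairs of receptor kinases, which phosphorylate Smad1, Smad5 or Smad9. These enter the nucleus with Smad4 and switch on genes such as the Id genes, while noggin and gremlin hold ligands away from their receptors outside the cell. In the postnatal testis Bmp4 is known as a signal to spermatogonia, and Bmp8b is known for its part in the making and upkeep of male germ cells.

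Gene counts ranged from 10230512 to 15636832 per library. Levels are given as CPM, which are counts scaled to a common library size. The targeted gene, Thra, had 398 and 257 CPM in wild type and 237 and 194 CPM in mutant testes. Gene counts cannot separate its normal from its mutant transcript, so this does not check the labels. The defining Sertoli cell markers were present, and the 8 listed summed to 2120 and 2020 CPM in wild type and 2040 and 1950 CPM in mutant libraries. Cldn11, named after its values were seen, was the 1 of them called lower, and the other 7 were not called. It had 126 CPM in each wild-type library and 51.4 and 56.5 CPM in mutant replicates 1 and 2. Both mutant libraries lay below both wild-type ones in 3 of the 8 Sertoli cell markers and above them in 2. The 3 were Cldn11 and, also named after their values were seen, Sox9 and Dhh. Of all 14788 tested genes, 4284 lay lower in this way and 4183 higher. The libraries differed in other cell types. The 8 skeletal muscle markers summed to 10.9 and 9.8 CPM in wild type against 2050 and 519 CPM in mutant replicates 1 and 2, with 6 called higher. Of these 8, 1 was at 0 in both wild-type libraries, Myog, named after its values were seen. The 8 germ cell markers summed to 818 and 562 against 314 and 279 CPM, and 6 of the 7 tested were called lower. Of all 14788 tested genes, 466 were called higher and 373 lower.

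No BMP ligand or antagonist gene was called different between the genotypes. Bmp6, Bmper and Bmp4 had the largest differences, all higher in mutant testes, by 0.50, 0.47 and 0.46 on the log2 scale, while Bmp2, Bmp5, Bmp7 and Nog differed by at most 0.12. Grem1 was read only in mutant libraries, from 7 reads in all, and Bmp8b had 12 reads in wild type and 8 in mutant testes. Of the 9 genes, 7 passed the filter on low counts and were tested, and edgeR's quasi-likelihood test called 0 of them at an adjusted p below 0.05, against 5.67% of all 14788 tested genes. At an unadjusted p below 0.05 there were 2, Bmp6 and Bmper, against 25.5% of all tested genes. DESeq2 called 0 of the 7, against 6.94% of all genes, and limma voom 0, against 3.93%. The 7 tested genes had a median log2 fold change of 0.12 and all 7 values were above 0 (Bmp2 at -0.01 by limma voom), while the median over all tested genes was -0.01. Both mutant libraries lay above both wild-type libraries in 4 of the 7 (Bmp4, Bmp5, Bmp6 and Bmper), a pattern shown by 28.3% of all tested genes.

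**Figure D1:**
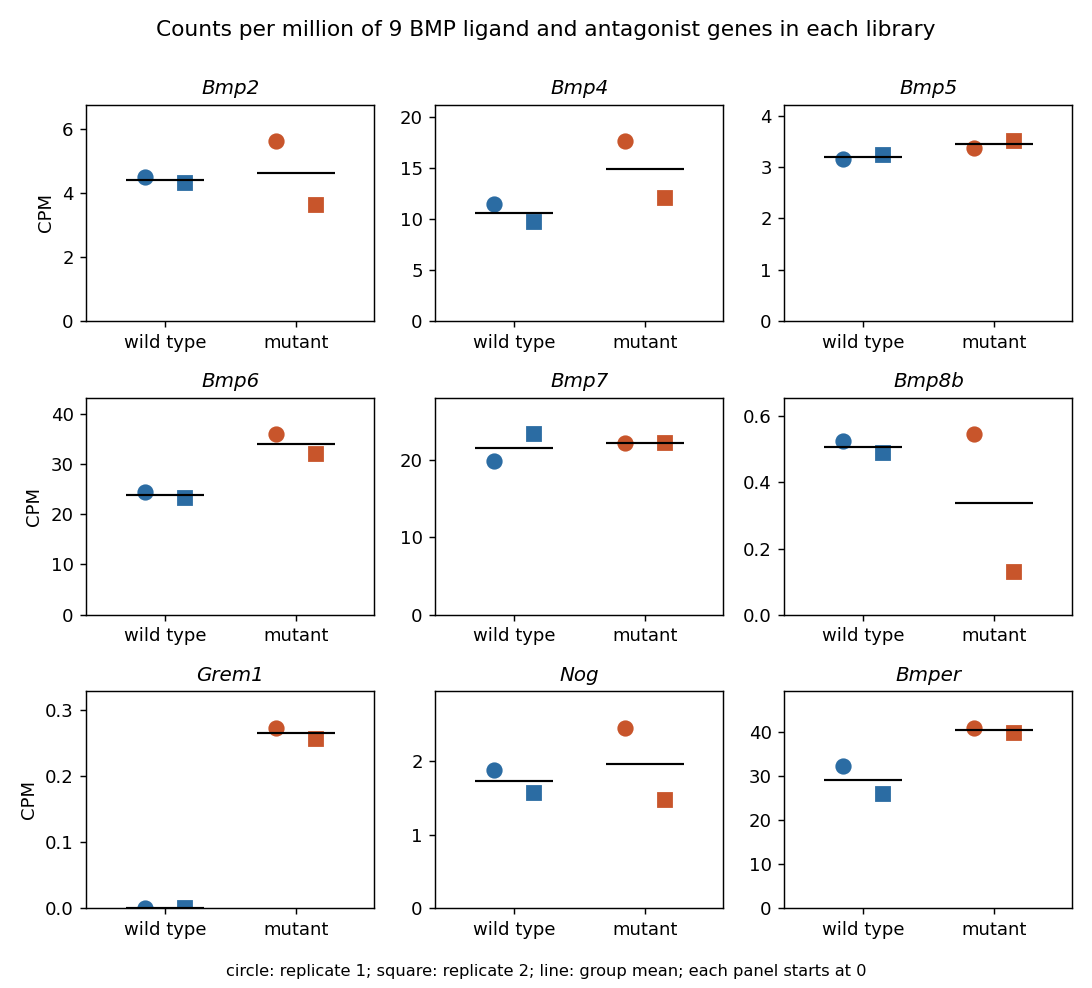
Level (CPM, y axis, starting at 0 in each panel) of the 9 genes in wild-type and mutant libraries (x axis), with circles for replicate 1, squares for replicate 2 and a line at each group's mean of 2 libraries. The groups stand apart in Bmp4, Bmp5, Bmp6, Bmper and Grem1, the last with 0 reads in wild type, and overlap in Bmp2, Bmp7, Bmp8b and Nog.

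Among the ligands, Bmp6 (chromosome 13, 38436995 to 38592183, plus strand, mm9), best known for its control of hepcidin and iron in the liver, had 24.4 and 23.2 CPM in the wild-type libraries and 35.9 and 32 CPM in the mutant ones. The wild-type pair lay close together and below both mutant libraries. The log2 fold change was 0.50 ± 0.13 (SE) with a 95% interval from 0.21 to 0.80 (adjusted p = 0.061 by edgeR), the smallest adjusted p among the 7 tested genes. Without each library in turn it ranged from 0.42 to 0.59, and the adjusted p from 0.0554 to 0.241. The 3′ end of Bmp6 shares 236 exon bases, or 6.58% of its exon length, with Txndc5, a protein disulfide isomerase gene on the opposite strand. Txndc5 stood at 453 and 451 CPM in wild type and 577 and 575 CPM in mutant libraries, was itself called higher at a log2 fold change of 0.35 (adjusted p = 0.0494), and reads in the shared bases cannot be told apart because the strand setting of the counting is not given.

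Bmp4 (chromosome 14, 47003195 to 47010344, minus strand), a morphogen of many embryonic tissues, had 11.5 and 9.7 CPM in wild type and 17.7 and 12.1 CPM in mutant testes. Mutant replicate 1 stood well above the other 3 libraries, and mutant replicate 2 only just above wild-type replicate 1. The log2 fold change was 0.46 ± 0.23 (SE; interval -0.07 to 0.99, adjusted p = 0.259). It fell to 0.18 without mutant replicate 1 (adjusted p = 0.801) and was 0.73 without mutant replicate 2 (adjusted p = 0.0786). Mutant replicate 1 was also the library with most skeletal muscle transcripts, and the part of these in the Bmp4 value was not tested. The predicted gene Gm15217 covers 4% of the Bmp4 exon bases on the other strand, and it held 3 reads in wild-type replicate 1 and 0 elsewhere.

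Bmp7 (chromosome 2, 172693513 to 172765822, minus strand), a ligand needed for kidneys and eyes to form, had 19.8 and 23.3 CPM in wild type and 22.1 CPM in each mutant library. The mutant values fall between the wild-type values. The log2 fold change was 0.04 ± 0.15 (SE), and the interval from -0.30 to 0.38 bounds a difference in either direction (adjusted p = 0.889).

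Bmp2 (chromosome 2, 133377895 to 133388621, plus strand), a close relative of Bmp4 and an inducer of bone, had 4.51 and 4.31 CPM in wild type and 5.64 and 3.64 CPM in mutant libraries. The mutant pair straddled the wild-type pair, again with replicate 1 on top. The log2 fold change was 0.03 ± 0.30 (SE; interval -0.66 to 0.72, adjusted p = 0.961), and it turned to -0.28 without mutant replicate 1.

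Bmp5 (chromosome 9, 75623171 to 75748117, plus strand), whose loss gives the short-ear mouse, was even across libraries, at 3.15 and 3.23 CPM in wild type and 3.37 and 3.51 CPM in mutant testes. The groups did not overlap, yet they differed by 0.11 ± 0.28 (SE) on the log2 scale (interval -0.54 to 0.76, adjusted p = 0.843). A long noncoding gene on the other strand, Gm16662, covers 46.7% of the Bmp5 exon bases in the annotation, and the count table has no row of that name. Reads in the shared bases cannot be told apart, because the strand setting of the counting is not given, and may be part of the Bmp5 values.

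Bmp8b (chromosome 4, 122782408 to 122809342, plus strand) had 7 and 5 reads in wild type and 6 and 2 reads in mutant replicates 1 and 2, too few for the filter. The low value was that of mutant replicate 2 alone. Bmp8b shares 133 exon bases, or 3.43% of its exon length, with Ppie, a peptidyl-prolyl isomerase gene on the opposite strand. Ppie had 1178 and 934 reads in wild type and 752 and 1099 in mutant libraries, and it was called lower at a log2 fold change of -0.38 (adjusted p = 0.0474). Its part in the few Bmp8b reads was not tested. The ratio of summed counts, mutant over wild type, was 0.588 with an exact 95% interval from 0.209 to 1.56, which covers counting error only and includes no difference. In a fit with no filter on low counts Bmp8b had an adjusted p of 0.61. Germ cell markers, the cell type in which Bmp8b is known, were lower in mutant libraries as given above, and their part in the Bmp8b value was not tested. In bulk tissue, fewer cells of a type and less RNA per cell cannot be told apart.

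Bmp8b has a closely related gene on the same chromosome, Bmp8a, which held 1 and 3 reads in wild type and 1 and 0 in mutant libraries. Over 1200 coding bases the mm9 transcripts of GENCODE M1 were 88% identical, with 144 differing positions. The stretches below show what the 100-base reads could and could not separate. The first pair gives coding bases 1031 to 1120, the 90-base window with the most differences, 22, each in capitals, and the third line gives coding bases 451 to 632, the longest run in which both genes are the same.
Bmp8b: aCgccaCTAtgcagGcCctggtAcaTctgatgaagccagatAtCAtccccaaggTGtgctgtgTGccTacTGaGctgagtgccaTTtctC
Bmp8a: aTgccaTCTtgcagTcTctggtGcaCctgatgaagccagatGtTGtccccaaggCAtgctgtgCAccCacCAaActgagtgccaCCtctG
Bmp8b and Bmp8a: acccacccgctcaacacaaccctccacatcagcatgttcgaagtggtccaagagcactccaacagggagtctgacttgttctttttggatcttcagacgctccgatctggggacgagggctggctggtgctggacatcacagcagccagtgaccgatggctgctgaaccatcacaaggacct
Of the 2841 windows of 100 bases in the Bmp8b transcript, 109 (3.84%) were also found in Bmp8a, so most positions could be assigned to 1 of the genes. For Bmp6 it was 4.21%, all shared with Txndc5, and no such window of the other 7 genes occurred in another protein-coding transcript.

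Among the antagonists and modulators, Bmper (chromosome 9, 23027520 to 23289646, plus strand), which encodes a secreted protein that binds BMPs and can dampen or promote their action in vessels and other tissues, had 32.3 and 25.8 CPM in wild type and 41 and 39.7 CPM in mutant libraries. Both mutant libraries lay above both wild-type ones, and the wild-type pair was the more spread. The log2 fold change was 0.47 ± 0.14 (SE) with an interval from 0.15 to 0.78 (adjusted p = 0.0815 by edgeR). Omission of wild-type replicate 1 gave 0.64, that of wild-type replicate 2 gave 0.32, and the adjusted p ranged from 0.106 to 0.223 over the 4 omissions.

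Nog (chromosome 11, 89161952 to 89163873, minus strand), the gene for noggin, had 1.88 and 1.57 CPM in wild type and 2.46 and 1.47 CPM in mutant testes. Mutant replicate 1 was highest and mutant replicate 2 lowest of the 4. The log2 fold change of 0.12 ± 0.40 (SE) had the widest interval of the 7, from -0.81 to 1.04 (adjusted p = 0.89), and turned to -0.24 without mutant replicate 1.

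Grem1 (chromosome 2, 113586321 to 113598803, minus strand), the gene for gremlin, had 0 reads in both wild-type libraries and 3 and 4 reads in mutant replicates 1 and 2. With 3 counts put in place of 0 for the wild-type group, the ratio of mutant over wild type was 2.06. That value leaves out the counting error of the 7 mutant reads and the spread between libraries. It did not pass the filter on low counts. In the edgeR fit with no filter its adjusted p was 0.161.

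The promoter windows of RefSeq (GRCm38.p6, from 250 bases before to 50 after the start site) covered 6 of the 9 genes: Bmp4, Bmp5, Bmp6, Bmp8b, Grem1 and Bmper. They were searched on both strands for AGGTCA, the letters of the half-site that thyroid hormone receptors prefer, and for GGCGCC, a palindrome bound by BMP Smads. These occur in 16.3% and 11.9% of all 32851 promoter windows, which were not matched for base content. Grem1 was the 1 window of the 6 with a match, and it held both, so its window (chr2:113758599-113758898, minus strand) is shown 5′ to 3′ with the matched letters in capitals. TGACCT is AGGTCA on the other strand.
Grem1: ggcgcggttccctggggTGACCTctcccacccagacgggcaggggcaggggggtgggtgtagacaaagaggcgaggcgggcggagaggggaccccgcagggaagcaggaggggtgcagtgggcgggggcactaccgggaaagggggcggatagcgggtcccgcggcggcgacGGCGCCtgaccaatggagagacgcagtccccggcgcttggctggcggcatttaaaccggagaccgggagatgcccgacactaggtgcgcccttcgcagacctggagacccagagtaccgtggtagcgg
The matches begin 233 and 78 bases before the start site. They do not overlap, and a match of letters is a description and not a site of binding. The other 5 windows held neither string in these bases.

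**Figure D2:**
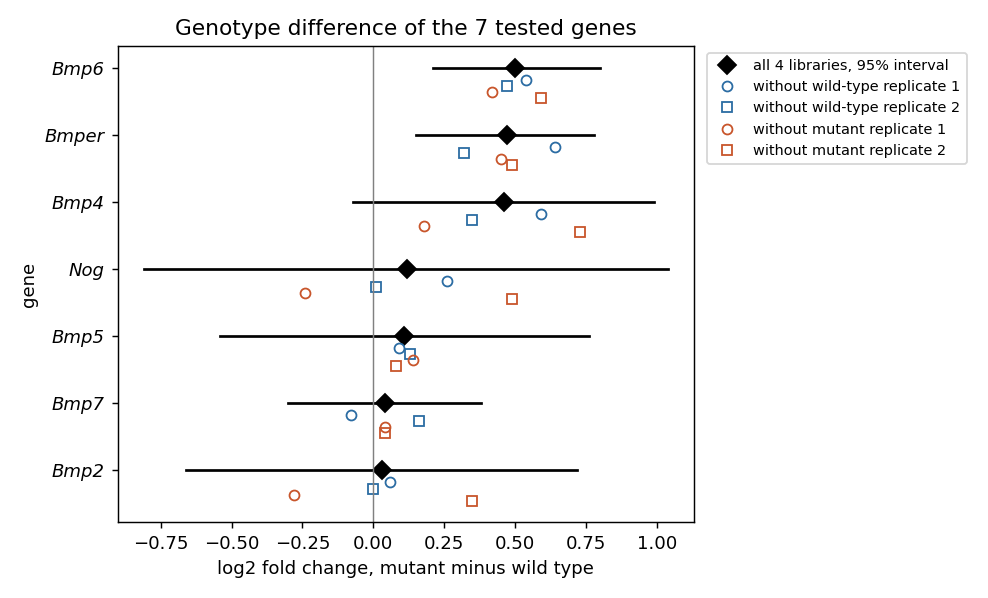
Log2 fold change, mutant minus wild type (x axis), of the 7 tested genes (y axis), with black diamonds and bars for the edgeR estimate and its 95% interval over all 4 libraries and open symbols for fits without 1 library. The open symbols of Bmp6, Bmper, Bmp4 and Bmp5 stay right of 0, and those of Nog, Bmp7 and Bmp2 lie on both sides.

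Levels of different genes were compared per kilobase of exon. In wild type Bmper was highest, at 7.66 ± 1.21 CPM per kilobase (SD, n = 2), followed by Bmp6 at 6.64 ± 0.232, Bmp7 at 5.36 ± 0.629 and Bmp4 at 4.77 ± 0.568. In mutant testes the same order of means held for Bmper at 10.6 ± 0.249 and Bmp6 at 9.46 ± 0.763, but Bmp4 at 6.68 ± 1.78 stood above Bmp7 at 5.5 ± 0.00437. Within wild type, Bmp6 lay above Bmp7 in both libraries, while Bmper overlapped Bmp6 and Bmp7 overlapped Bmp4. Within mutant testes Bmper lay above Bmp6 and Bmp6 above Bmp4, while Bmp4 and Bmp7 overlapped. A gap followed in both genotypes, below which lay Bmp2 at 1.24 ± 0.0384 CPM per kilobase in wild type, Nog at 0.896 ± 0.114 and Bmp5 at 0.794 ± 0.0141. These 3 did not overlap within wild type, though in replicate 2 Nog, at 0.816, stood only just above Bmp5, at 0.804. In mutant testes Nog overlapped both Bmp2 and Bmp5, and Bmp2 lay above Bmp5. Bmp8b, at 0.131 ± 0.00649, and Grem1, at 0 in wild type and 0.0658 and 0.0616 in mutant replicates 1 and 2, formed the lowest pair.

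**Figure D3:**
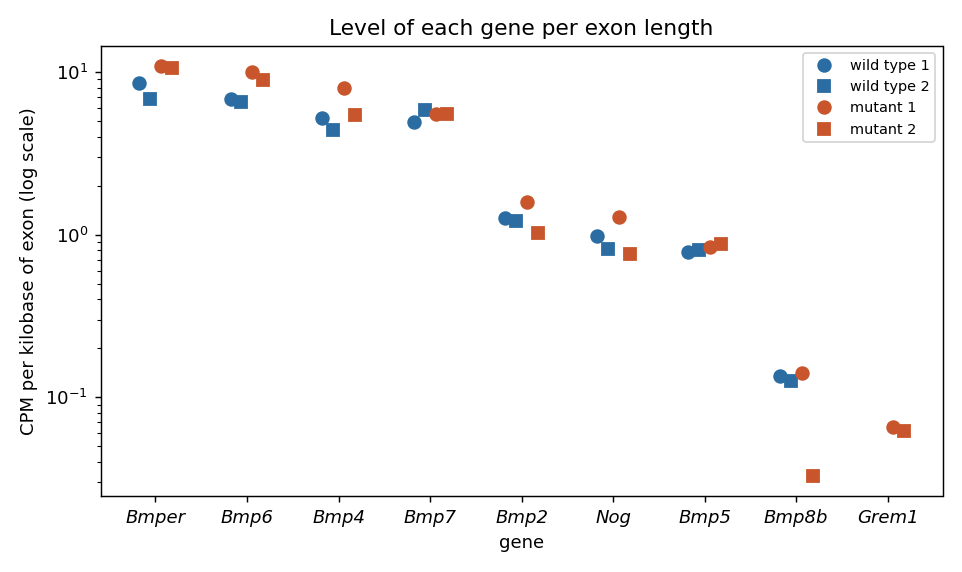
Level per exon length (CPM per kilobase, log-scaled y axis) of the 9 genes (x axis), ordered by their mean over the 4 libraries, with 1 symbol per library. The first 4 genes lie between 4.36 and 10.8, the next 3 between 0.764 and 1.59, and Grem1 has no wild-type symbols because its level there is 0, which a log axis cannot show.

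The genes were also compared by their pattern over libraries. The likeness used was the Euclidean distance between log2 CPM values centred on each gene's mean over the 4 libraries, where 0 means the same profile. Among the 21 pairs of tested genes the closest were Bmp5 and Bmp7 at 0.162, Bmp2 and Nog at 0.167 and Bmp6 and Bmper at 0.198. Over 13491 genes with enough expression, those nearest to Bmp6 were Hecw2 at 0.0229, Sipa1l2 at 0.0353 and Homer2 at 0.0376. Those nearest to Bmper were Osr1 at 0.0281, Bsn at 0.0349 and Ankrd29 at 0.0359. With 4 libraries such profiles are a description.

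The rest of the pathway was read from 57 further genes, of which 46 were tested. edgeR called 1 of the 46, Ski, and 13 had an unadjusted p below 0.05, 11 of them higher in mutant testes. These shares, like those of the ligands and antagonists, are set against the 5.67% and 25.5% of all tested genes given above.

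Of 11 other BMP and growth differentiation factor (GDF) ligands 4 were tested, and edgeR called 0, with 0 at an unadjusted p below 0.05. Bmp3, a ligand that opposes bone formation, had 0.826 and 0.784 CPM in wild type and 2.46 and 1.09 CPM in mutant testes, a log2 fold change of 1.03 ± 0.54 (SE; adjusted p = 0.275). Gdf6, a ligand of joint and skull development, had -0.56 ± 0.36 (adjusted p = 0.377). Gdf7, chosen after its values were seen, had 0 and 1 reads in wild type and 22 and 4 in mutant replicates 1 and 2, so that 1 library held most of its reads. Its count ratio of 22.9 had an exact interval from 3.77 to 940, which covers counting error only and not the spread between libraries.

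Of 17 other extracellular antagonists and modulators 13 were tested, and edgeR called 0, with 7 at an unadjusted p below 0.05, 6 of them higher. Their median log2 fold change was 0.18. Tll1, a protease that cuts chordin, went from 2.18 and 2.55 CPM in wild type to 6.37 and 4.98 CPM in mutant libraries, a log2 fold change of 1.25 ± 0.30 (SE; adjusted p = 0.0517). Chrd, the gene for the antagonist chordin itself, was at 11.9 and 9.9 CPM in wild type and 24.8 and 16.9 CPM in mutant libraries, 0.90 ± 0.23 on the log2 scale (adjusted p = 0.0579). Both lay just outside the threshold. In both, the 2 mutant libraries lay above the 2 wild-type ones, a pattern shown by 28.3% of all tested genes. Chrd passed it by DESeq2 (adjusted p = 0.0164) and without mutant replicate 2 (0.00142), and Tll1 without mutant replicate 2 (0.0174). Neither passed when any 1 of the other 3 libraries was left out (0.151 to 0.19 for Chrd, 0.102 to 0.199 for Tll1), and Chrd was at 0.62 without mutant replicate 1. Chosen after their values were seen, Sostdc1, an antagonist of teeth and kidney, had 1.22 ± 0.33 (adjusted p = 0.0662), and Chrdl1, a chordin-like antagonist, had -0.73 ± 0.22 (adjusted p = 0.0924). Bmp3, Gdf7, Tll1, Chrd and Sostdc1, but not Chrdl1, were higher in mutant replicate 1 than in mutant replicate 2. Mutant replicate 1 held most skeletal muscle transcripts, and the part of these in the values was not tested.

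Of the 11 receptors and co-receptors, all tested, edgeR called 0, with 3 at an unadjusted p below 0.05 and a median log2 fold change of 0.04. Rgma, a co-receptor, was at 35.7 and 35.5 CPM in wild type and 52.5 and 44.8 CPM in mutant libraries, 0.45 ± 0.12 on the log2 scale (adjusted p = 0.0662), and it passed the threshold without mutant replicate 2 (0.0339) but not when any 1 of the other 3 libraries was left out (0.169 to 0.316). Acvr1, a receptor for Bmp6 and Bmp7, had 0.32 ± 0.13 (adjusted p = 0.173). Bmpr1a, the main receptor for Bmp2 and Bmp4, chosen after its values were seen, had 0.04 ± 0.08 with an interval from -0.15 to 0.23.

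Of 7 Smads and intracellular regulators edgeR called 1. Ski, a corepressor that binds Smads, rose from 248 and 222 CPM in wild type to 335 and 297 CPM in mutant testes, 1.34-fold (log2 fold change 0.43 ± 0.10 SE, adjusted p = 0.046). That call was lost without wild-type replicate 1, wild-type replicate 2 or mutant replicate 1 (adjusted p = 0.105, 0.145 and 0.169) and by limma voom (0.0538). The other 6 were not called.

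Of 11 target and feedback genes edgeR called 0, with 2 at an unadjusted p below 0.05 and a median log2 fold change of -0.04. Bambi, a decoy receptor that BMP signalling induces, was at 81.2 and 73.7 CPM in wild type and 59.6 and 60.8 CPM in mutant libraries, -0.36 ± 0.10 on the log2 scale (adjusted p = 0.0642). Msx2, a homeobox gene that BMPs induce in limb and skull, had 10 and 6 reads in wild type and 19 and 21 in mutant libraries, 1.13 ± 0.46 (adjusted p = 0.169). The standard readouts of the pathway, Id1, Id2 and Id3, chosen after their values were seen, had log2 fold changes of -0.01 ± 0.12, -0.04 ± 0.11 and -0.04 ± 0.08, and the interval of Id3 ran from -0.22 to 0.14.

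**Figure D4:**
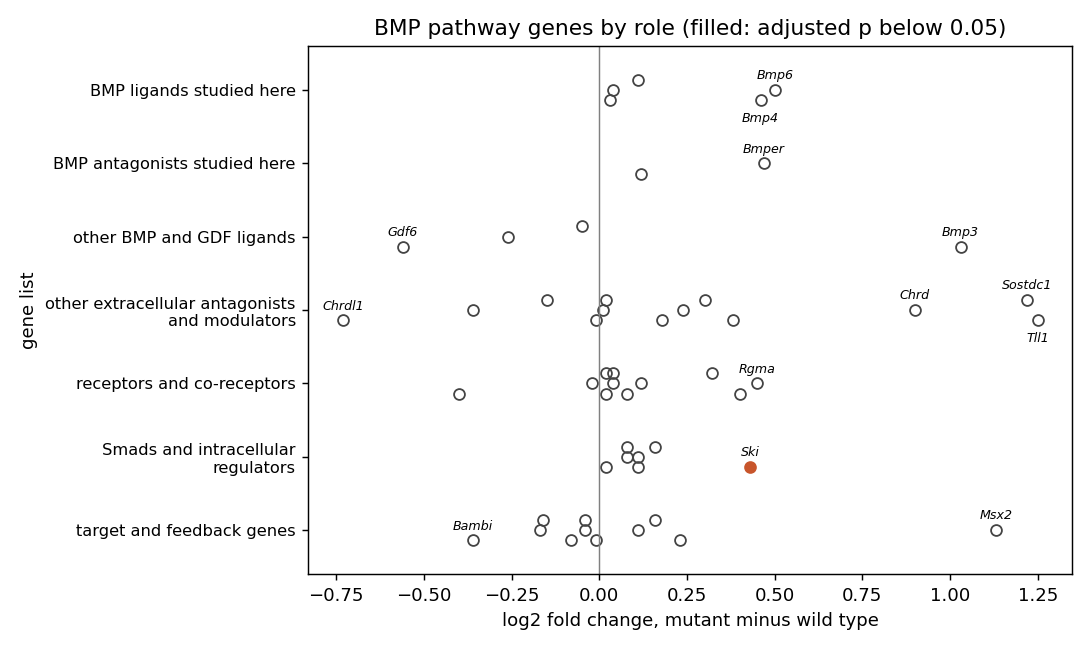
Log2 fold change, mutant minus wild type (x axis), of each tested BMP pathway gene, in rows by role (y axis, spread vertically for legibility), with a filled symbol for an adjusted p below 0.05. Ski, at 0.43, is the 1 filled symbol, and the extracellular antagonists and modulators span the widest range, from -0.73 (Chrdl1) to 1.25 (Tll1).

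Markers of cells that could hold these transcripts moved with the genotype to different degrees. Their calls are set against 466 genes called higher and 373 called lower of all 14788 tested. The 7 stroma and fibroblast markers summed to 9630 and 6900 CPM in wild type and 11800 and 11600 CPM in mutant libraries, none was called, 5 of 7 had both mutant libraries above both wild-type ones, against 28.3% of all tested genes, and their median log2 fold change was 0.36. The 7 markers of mesothelium, rete and ducts summed to 248 and 273 against 378 and 496 CPM, with a median of 0.91. The 4 called higher, named after their values were seen, were Msln, Upk3b, Krt19 and Lrrn4. The other 3, Krt8, Pax8 and Pax2, overlapped between the groups, with log2 fold changes of 0.18, -0.23 and 0.22. The 6 macrophage and leukocyte markers summed to 111 and 124 against 180 and 229 CPM, with 3 called higher and a median of 0.76. The 5 endothelial markers summed to 233 and 225 against 301 and 257 CPM, with none called and a median of 0.29. Of the 5 adipocyte markers, which summed to 73.6 and 81.7 against 27.4 and 26.2 CPM, 4 were tested and 3 called lower, with a median of -3.14. The 5 peritubular and smooth muscle markers summed to 1620 and 1570 against 1800 and 1500 CPM, with none called and a median of -0.08. Within this sum, by values seen first, Des went from 87.3 and 63.8 to 246 and 110 CPM. Like the skeletal muscle sum, Des was higher in mutant replicate 1 than in mutant replicate 2. The part of skeletal muscle in the Des value was not tested. Myh11 went from 152 and 123 to 105 and 114 CPM, and the other 3 overlapped between the groups. No marker of these 6 lists was at 0 in both wild-type libraries. Their part in the values of Bmp6, Bmper and Bmp4 was not tested. The 6 fetal Leydig cell markers had a median of 0.12 and the 8 Sertoli cell markers 0.01, with 1 of the latter, Cldn11, called lower as given above.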

How the data were processed

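Per the labels' protocols, polyadenylated RNA of whole testes was read from 1 end over 100 bases. CASAVA 1.8.1, TopHat 1.4.0, HTSeq, DESeq2 and mm9 are named in the submitters' processing notes, with no roles. The authors deposited 1 table of raw counts per gene, entered here in the class of estimated counts since percentages stand below its gene rows. Gene values are whole numbers and were used without rounding. Reads in no gene (13.8% to 17.3% of counted reads) and ambiguous reads (0.602% to 0.726%) were left out of library sizes. The mode, annotation or strand of counting is not given in the sources used here.

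All genes were fitted with edgeR 4.0.16 (R 4.3.3): TMM normalisation, default filter (minimum count 10, minimum total 15; 14788 genes), quasi-likelihood F test with legacy and robust options off, genotype alone, two-sided, Benjamini-Hochberg adjustment over all tested genes, called below 0.05. CPM use TMM-adjusted library sizes. SE is the log2 fold change over the root of F, and intervals use its degrees of freedom. The fit was tested on simulated data. Alternatives were DESeq2 1.42.0, limma 3.58.1 voom, other fits, normalisations and filters, a replicate block, and omission of each library. Positions and lengths come from GENCODE M1 (mm9), in which all 132 listed genes were found.

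The genes, lists and tests were chosen with earlier results of these data known. Named are the 9 genes, genes that share exon bases with them, Bmp8a as the relative of Bmp8b, and Thra as the targeted gene. In each further pathway list the called genes are named, or else the 2 with the smallest p. So are the 3 genes with the profile nearest to each of the 2 ligand or antagonist genes with the smallest p. Any other gene is marked in the text as picked after its values were known, or is the rest of a list so marked. Profiles used log2 CPM with a prior count of 2 and genes with a mean of at least 1.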

Additional observations from a re-analysis of the deposited data

How the results depend on the processing

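edgeR, DESeq2 and limma voom called none of the tested BMP ligand and antagonist genes under any of the 13 alternatives (7 tested, 9 with no filter on low counts, 6 without Nog with at least 30 counts required), with 2 or 3 of them at an unadjusted p below 0.05 each time. Bmp4, Bmp5, Bmp6 and Bmper kept their direction under all 13, with log2 fold changes from 0.18 to 0.73, 0.08 to 0.14, 0.42 to 0.59 and 0.32 to 0.64. Bmp2 turned to -0.01 by limma voom and ranged from -0.28 to 0.35 when each library was left out, Bmp7 from -0.08 to 0.16 and Nog from -0.24 to 0.49. Chrd also passed the threshold in the robust fit (adjusted p = 0.0495) and with the replicate block (0.0329), Tll1 in the robust fit (0.0473) and with at least 30 counts required (0.0474), and Ski lost its call with no filter (0.0631). The number of all genes called, 839, became 500 with no filter on low counts and ranged from 74 (without wild-type replicate 1) to 1295 (without mutant replicate 2) over the omissions, with 148 without wild-type replicate 2. Median-ratio size factors gave 844 and library size alone 789. Per kilobase of the longest transcript in place of all exons, wild-type levels were 0.836 for Bmp5, 7.11 for Bmp6 and 0.173 CPM for Bmp8b. The Bmp5 mean then exceeded Nog in wild-type replicate 2 (0.816), so Nog and Bmp5 no longer stood apart in wild type. With the replicate number as a block 853 genes were called, none of them a BMP ligand or antagonist gene. Nothing in the labels says that a number pairs libraries, and the differences between replicates 1 and 2 correlated at -0.0314 over genes between the groups. The causes of these shifts were not tested. Depth limits Grem1, Bmp8b and Nog most, with 0, 12 and 41 reads in the wild-type group and 7, 8 and 50 in the mutant group.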
